A study of Mus musculus with 383 samples.

Results

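The genes of oxidative phosphorylation were followed through single cells of mouse skin squamous cell carcinoma, sorted as Epcam-positive or Epcam-negative. A gene was a member if its mapped symbol began with Nduf, Uqcr, Atp5, Sdha to Sdhd, Cox4 to Cox8, mt-Nd, mt-Co, mt-Cytb or mt-Atp, and 7 symbols with -ps were left out. Of 49585 genes in the count table, the members were 13 genes of mitochondrial DNA and, in the nucleus, 97 protein-coding genes and 4 processed pseudogenes (Ndufa11b, Ndufb4c, Ndufs6b and Cox6c2).

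The cells were prepared by Smart-seq2, which amplifies full-length cDNA from polyadenylated RNA of each cell and adds no molecular identifiers. The tumours came from mice whose alleles, which both populations share, include Lgr5CreER, p53fl/fl and Rosa26-YFP+/+, and both populations were sorted as YFP-positive. The study compared the Epcam-negative with the Epcam-positive cells to find transcriptional differences between states of the epithelial to mesenchymal transition. The wells held 70 Epcam-positive and 310 Epcam-negative single cells, of which 8 and 47 failed the filters on depth, gene number, mitochondrial share and spike-in share. The labels name no animal, age, tumour or culture, so each population counts as 1 sample and no test between populations was made.

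The kept cells had a median of 413142 (Epcam-positive) and 414731 (Epcam-negative) gene reads, and the 2 populations summed to 24840769 and 107313931 reads. Epcam was at 1069 against 22.7 counts per 1000000 gene reads (CPM), and the mesenchymal genes Vim and Col3a1 at 592 and 31.2 against 5809 and 4756 CPM, in the order of their labels. Of the marker genes of other cell types that were read, the endothelial Pecam1 (13.3 and 4.603 CPM) and the pericyte Rgs5 (0 and 13.2 CPM, in 20 cells) passed 10 CPM in a population. The endothelial Cdh5 stood at 2.29 and 0.037 CPM (6 and 3 cells) and Kdr at 0.040 and 0.019 CPM (1 and 2 cells). The pericyte Kcnj8 stood at 0 and 1.77 CPM (0 and 3 cells). Among leukocyte genes Ptprc had 0 and 10 reads, Cd3e stood at 0.60 and 6.18 CPM (4 and 26 cells), Csf1r at 0 and 2.66 CPM (0 and 20 cells) and Lyz2 at 9.54 and 3.74 CPM (3 and 14 cells). Of muscle genes Myh4 had no read and Acta1 stood at 0.32 and 6.504 CPM (1 and 39 cells). The part of such cells in the member values was not tested. The populations filled separate rows of the plate (A to C, then D to P), so that effects of row and of population cannot be told apart. The titles of the wells give an index pair and no plate position. Each row here holds 1 second index and each column 1 first index. A well set up with 0 cells held 99241 gene reads.

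Oxidative phosphorylation makes most of the ATP of a resting cell. Complexes I (NADH dehydrogenase) and II (succinate dehydrogenase) pass electrons to ubiquinone, complex III passes them to cytochrome c, complex IV (cytochrome c oxidase) reduces oxygen, and complex V (ATP synthase) uses the proton gradient built by complexes I, III and IV. All of these except complex II are built from subunits of both genomes: a small set of core subunits comes from mitochondrial DNA, transcribed and translated inside the organelle, and all others are made in the cytosol and imported. The balance between the 2 sources is therefore a standard question about the respiratory chain.

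Both sources were lower in the Epcam-negative population, and by about the same factor. The nuclear-coded members summed to 23426 CPM (Epcam-positive) and 15153 CPM (Epcam-negative), 2.34% and 1.52% of gene reads, which is 1.55-fold higher in Epcam-positive cells (log2 ratio -0.63, Epcam-negative over Epcam-positive). The mitochondrially coded members summed to 31083 and 20569 CPM, 3.11% and 2.06% of gene reads, which is 1.51-fold higher (log2 ratio -0.60). The ratio of mitochondrially to nuclear-coded reads was 1.33 and 1.36, a log2 difference of 0.03. The mitochondrial ribosomal RNAs mt-Rnr1 and mt-Rnr2, which come from the same genome, took 3.08% and 2.55% of gene reads, a log2 ratio of -0.27, so that the messenger share of all mitochondrial reads was 50.2% (Epcam-positive) and 44.7% (Epcam-negative). Of the 13 mitochondrially coded members, only 8 had a mean of at least 10 CPM. The messenger share and the ratio thus describe the members that were counted, not all mitochondrial messengers. The rule keeps only cells with at most 20% mitochondrial reads. That cap alone removed 0 Epcam-positive and 2 Epcam-negative cells, and with no cap the ratio in Epcam-negative cells was 1.37.

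Member by member, 85 nuclear-coded and 8 of the 13 mitochondrially coded members were measured, meaning a mean of at least 10 CPM over both populations, and none of the 85 reached it through 1 population alone. Another 13 nuclear-coded members had reads below that level and 3 (Ndufb4c, Cox7b2 and Cox8c) had none. A log2 ratio here sets the Epcam-negative level over the Epcam-positive one, each as CPM + 1, and pairs of CPM values are given in the order Epcam-positive, Epcam-negative. The median over the 85 was -0.55, and 80 of them were lower in Epcam-negative cells. The median over the 8 was also -0.55, and 8 of 8 were lower. Over all 8887 measured genes the median was -0.09, and 45.3% were higher in Epcam-negative cells. None of the 85 measured nuclear-coded members reached 2-fold on the higher side, against 13.4% of all measured genes. The 2-fold lower side held 5 nuclear-coded members (Ndufa4, Ndufaf4, Atp5b, Uqcrfs1 and Atp5g3), which is 5.88% of the 85 and below the 11.5% of all measured genes. The members were thus shifted together by a moderate amount, and few passed 2-fold. In plate columns 1 to 12 the nuclear-coded median was -0.52 and in columns 13 to 24 it was -0.58. In both blocks of columns, 71 of the 85 were lower.

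**Figure D1:**
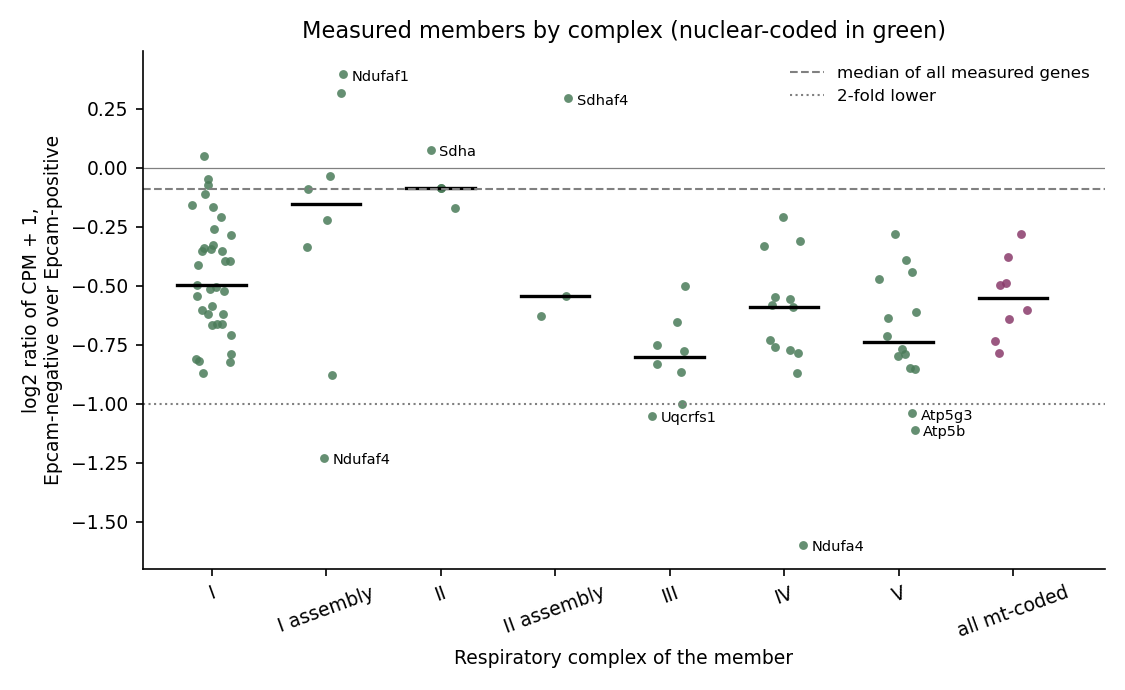
Each point is 1 measured member, placed by its complex on the x axis and by its log2 ratio of CPM + 1 (Epcam-negative over Epcam-positive) on the y axis; black bars are medians, the dashed line is the median of all measured genes and the dotted line marks 2-fold lower. Complexes III, IV and V lie wholly below 0, the 4 complex II subunits lie near the dashed line, and Ndufa4 is the lowest point at -1.60.

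Complex I, the entry point for electrons from NADH, had 35 measured nuclear-coded subunits, 34 of them lower in Epcam-negative cells, with a median log2 ratio of -0.50. Ndufv1, the flavoprotein subunit that takes up NADH electrons, stood at 245.6 and 154.9 CPM (log2 ratio -0.66, 95% interval -0.70 to -0.62). Ndufs1, the largest iron-sulfur subunit, stood at 74.8 and 64.5 CPM (log2 ratio -0.21). The accessory subunits Ndufb8 (267.5 and 145.9 CPM, log2 ratio -0.87) and Ndufa12 (93.1 and 52.2 CPM, log2 ratio -0.82) were the lowest of the complex. Ndufa13 was the single subunit of the complex above 0, at 104.4 and 108.5 CPM (log2 ratio 0.05), with an interval of -0.01 to 0.11 that includes 0, and it stood at -0.11 (plate columns 1 to 12) and 0.28 (columns 13 to 24). Ndufb4 followed at 18.96 and 18.3 CPM (log2 ratio -0.05). All intervals here cover counting error only, because amplified reads carry no molecular identifier.

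The complex I assembly factors did not share one direction. Ndufaf4, an early assembly factor, stood at 77.3 and 32.4 CPM (log2 ratio -1.23), and Ndufaf6 at 26.3 and 13.9 CPM (log2 ratio -0.88). Ndufaf1 (16.3 and 21.7 CPM, log2 ratio 0.40) and Ndufaf7 (40.5 and 50.6 CPM, log2 ratio 0.32) were higher in Epcam-negative cells, Ndufaf7 not so with spike-in scaling (-0.03). The median over the 8 factors was -0.16. Ndufaf4 (GRCm38 chr4:24898083-24905001, plus strand) differed by plate columns, at -1.64 in columns 1 to 12 and -0.58 in columns 13 to 24, so its 2-fold difference rests on columns 1 to 12.

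Complex II, which is also an enzyme of the Krebs cycle and has no subunit in mitochondrial DNA, stood closest to the median of all genes. Sdha, its flavoprotein (chr13:74322254-74350280, minus strand), was at 155.3 and 163.5 CPM. Over single Epcam-positive cells Sdha ran from 0 through a median of 102.2 to 553 CPM, and over Epcam-negative cells from 0 through 87.4 to 1483 CPM, so the ranges overlapped and the highest cell was Epcam-negative. Its log2 ratio was 0.07 (95% interval 0.02 to 0.12), and Sdhb, the iron-sulfur subunit, was at 321 and 284.99 CPM (log2 ratio -0.17). The membrane anchors Sdhc (178.5 and 167.9 CPM) and Sdhd (119.2 and 112.4 CPM) had log2 ratios of -0.09 and -0.08. The complex median of -0.09 turned to 0.05 when the populations were scaled by TMM and to 0.02 by median of ratios, so no direction is given for complex II. Of its assembly factors, Sdhaf3 (23.7 and 14.98 CPM) and Sdhaf2 (93.6 and 63.9 CPM) had log2 ratios of -0.63 and -0.54, while Sdhaf4 (42.3 and 52.1 CPM) had 0.29, and by plate columns 0.58 (1 to 12) and -0.08 (13 to 24).

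Complex III had a median of -0.80, with 8 of 8 nuclear-coded members lower in Epcam-negative cells. This was the lowest median of a complex over all plate columns, while in columns 1 to 12 complex IV (-0.68) lay below complex III (-0.65). Uqcrfs1, the Rieske iron-sulfur protein (chr13:30540308-30545362, minus strand), ran over Epcam-positive cells from 0 through a median of 385 to 1189 CPM and over Epcam-negative cells from 0 through 135.7 to 1885 CPM. The populations overlapped, and the medians lay further apart than the summed levels of 414 and 199.1 CPM (log2 ratio -1.05, 95% interval -1.09 to -1.02). In plate columns 1 to 12 its log2 ratio was -0.90, short of 2-fold, and in columns 13 to 24 it was -1.26. Uqcrc1, a core protein of the complex (chr9:108936633-108949623, plus strand), stood at the 2-fold line, with 465 and 231.9 CPM and a log2 ratio of CPM + 1 of -0.9995, with -1.17 (plate columns 1 to 12) and -0.74 (columns 13 to 24). The members least shifted were Uqcrq (325 and 229.7 CPM, log2 ratio -0.50) and Uqcr10 (172.8 and 109.7 CPM, log2 ratio -0.65). The 1 mitochondrially coded subunit, mt-Cytb, had a log2 ratio of -0.50.

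In complex IV, 13 of 13 measured nuclear-coded members were lower, with a median of -0.59. Ndufa4, first named as a complex I subunit and now assigned to complex IV (chr6:11900292-11907497, minus strand), had the largest difference of all members. It ran over Epcam-positive cells from 46.3 through a median of 685 to 2793 CPM and over Epcam-negative cells from 0 through 251.9 to 1505 CPM. At 5 or more of 100000 thinned reads it was present in 98.4% and 90.5% of cells, so the difference was one of level in cells that mostly had the transcript. The summed levels were 869.9 and 286.7 CPM, 3.03-fold higher in Epcam-positive cells (log2 ratio -1.60, 95% interval -1.62 to -1.57), and plate columns 1 to 12 and 13 to 24 gave -1.61 and -1.58. Cox8a, a small membrane subunit, was at 483 and 264.2 CPM (log2 ratio -0.87). Cox4i1, the largest nuclear-coded subunit, was at 1427 and 1149 CPM (log2 ratio -0.31) and Cox5a at 191.8 and 165.7 CPM (log2 ratio -0.21), the smallest shift of the complex.

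Complex V contained 14 measured nuclear-coded members, 14 of them lower, with a median of -0.74. Atp5b, the catalytic beta subunit (chr10:128083273-128090391, plus strand), ran over Epcam-positive cells from 743 through a median of 2608 to 5450 CPM, and over Epcam-negative cells from 4.06 through 1057 to 4243 CPM. The ranges overlapped, yet the Epcam-negative median lay far below the Epcam-positive median. The summed levels were 2827 and 1309.9 CPM (log2 ratio -1.11, 95% interval -1.12 to -1.10). Its partner in the catalytic hexamer, Atp5a1, stood at 1307 and 751 CPM (log2 ratio -0.80), and Atp5c1, the central stalk, at 702 and 578 CPM (log2 ratio -0.28), the smallest shift, followed by Atp5f1 of the peripheral stalk (log2 ratio -0.39). Atp5g3, which codes for subunit c of the membrane ring (chr2:73908447-73911326, minus strand), was at 601 and 291.8 CPM (log2 ratio -1.04). Atp5s, coupling factor B with a mean just under 10 CPM and named here after its values were seen, went the other way, at 4.59 and 13.5 CPM (log2 ratio 1.38).

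**Figure D2:**
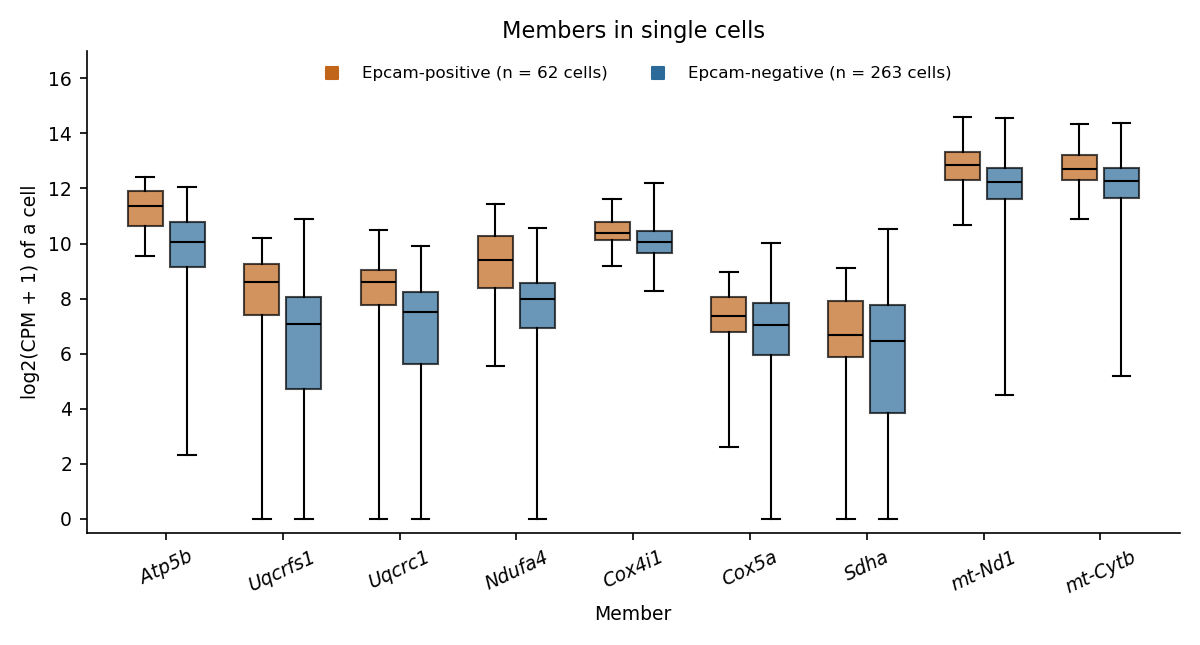
Boxes show the quartiles and median of log2(CPM + 1) over single cells for named members, and whiskers reach the lowest and highest cell; Epcam-positive cells (n = 62) are orange and Epcam-negative cells blue. The Epcam-negative median is lower for each gene shown, by most for Ndufa4, Atp5b and Uqcrfs1 and by least for Sdha, and the ranges overlap for each gene shown.

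Several subunits come as paralogs, of which some are known from heart and skeletal muscle, lung or testis. In these tumour cells the tissue-restricted forms of complex IV were near 0. Cox4i2 stood at 1.37 and 2.54 CPM beside Cox4i1, Cox6a2 at 0 and 0.056 CPM beside Cox6a1 (386 and 306.04 CPM), Cox7a1 at 0.28 and 0.85 CPM beside Cox7a2 (266.1 and 153.9 CPM) and Cox7a2l (135.8 and 92.7 CPM). Cox6b2 was at 1.97 and 0.46 CPM beside Cox6b1 (589 and 344 CPM), Cox8b had 0 and 2 reads, and Cox7b2 and Cox8c had none. Ndufa4l2, a paralog of Ndufa4 known as a hypoxia target, was an exception among the minor forms. It stood at 87.1 and 52.1 CPM (log2 ratio -0.73), with a median cell of 14.5 and 2.08 CPM and a highest cell of 959 and 1319 CPM, so a minority of cells carried most of its reads. It was present in 43.5% of Epcam-positive and 23.6% of Epcam-negative cells. Of the 3 genes for subunit c, Atp5g3 stood at 275.6 and 133.8 CPM per kilobase of exon, Atp5g1 at 5.67 and 3.64 and Atp5g2 at 0.62 and 0.51. For Atp5g2, 38.3% of all 50-base stretches of its transcripts also occur in transcripts of other genes, against 0% for Atp5g3, and the part of this in its low count was not tested.

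The mitochondrially coded members need their sequence beside their counts. The reads were 50 bases long, and mouse chromosome 1 holds pseudogenes copied from mitochondrial DNA. Every 50-base window of each member's transcripts was therefore looked up in all other annotated transcripts (GENCODE vM21, GRCm38). Stretches of 120 bases from 3 members show the range, with bases that lie in a window identical to another gene in capitals.
mt-Co2: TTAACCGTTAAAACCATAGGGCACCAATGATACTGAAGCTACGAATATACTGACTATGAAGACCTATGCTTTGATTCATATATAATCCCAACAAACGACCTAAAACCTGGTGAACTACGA
mt-Nd4: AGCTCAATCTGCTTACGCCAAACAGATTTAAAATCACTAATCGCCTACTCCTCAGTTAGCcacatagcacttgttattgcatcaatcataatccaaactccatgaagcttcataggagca
mt-Nd1: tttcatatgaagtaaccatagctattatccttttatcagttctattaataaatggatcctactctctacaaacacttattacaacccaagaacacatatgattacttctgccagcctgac
The mt-Co2 stretch (chrM:7295-7414, plus strand) is identical throughout to Gm28661 (chr1:24615164-24615283, minus strand). The first 60 bases of the mt-Nd4 stretch (chrM:10983-11102) are identical to Gm28439 (chr1:24611535-24611594, minus strand), and the identity ends inside the gene. The mt-Nd1 stretch (chrM:3169-3288) has no identical window in another annotated transcript.

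The share of windows found in another gene was 100% for mt-Co2, 99.9% for mt-Co3, 99.5% for mt-Atp6, 98.8% for mt-Nd4l and 97.99% for mt-Nd3. These members had 0, 0, 0, 0 and 869 reads in Epcam-positive and 0, 3, 2, 0 and 2132 reads in Epcam-negative cells, and of the chromosome 1 copies Gm28661, Gm28437, Gm10222, Gm28438 and Gm28439 had 0 and Gm10925 had 1. The share was 62.2% for mt-Nd4, 51.1% for mt-Co1, 8.19% for mt-Nd2, 7.61% for mt-Nd5 and 0% for mt-Nd1, mt-Cytb and mt-Nd6. These 7 carried nearly all reads. The counted level of the mitochondrially coded set is thus the level of those 7 and of a remnant of mt-Nd3, and it includes no read of complex V beyond the 2 of mt-Atp6. For mt-Atp8 no window was shared with another annotated transcript, and it also had 0 reads. The search does not see copies outside annotated transcripts, so whether mt-Atp8 is unique in the genome was not tested. The mt-Atp8 transcript overlaps mt-Atp6 over 21.1% of its length. How reads that match several places were counted is not given in the sources used here.

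**Figure D3:**
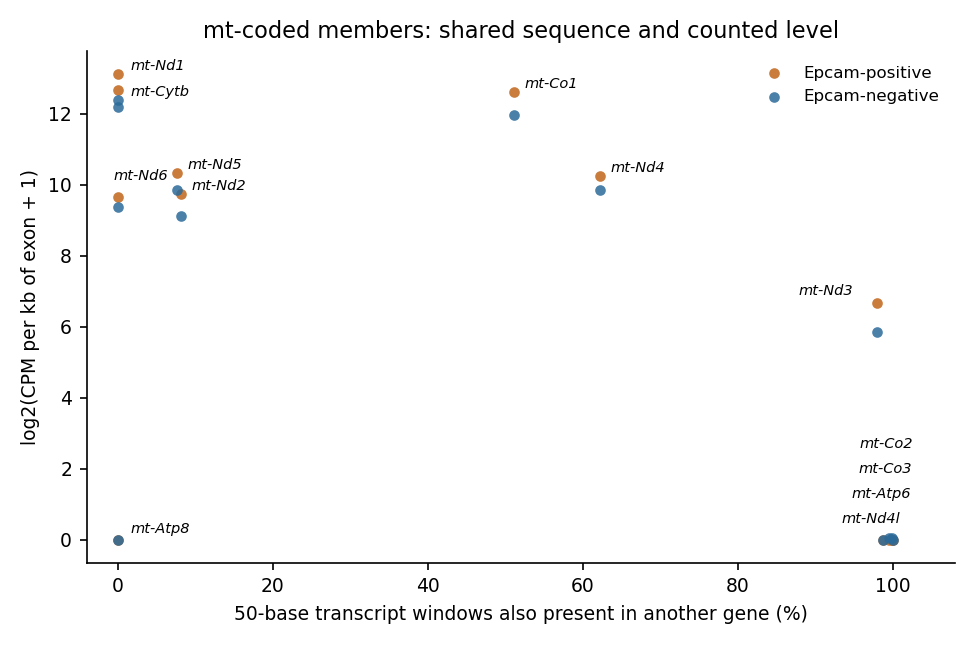
Each mitochondrially coded member is placed by the percentage of its 50-base transcript windows that also occur in another annotated gene (x axis). The y axis is log2(CPM per kilobase of exon + 1) in each population. The 4 members at 98.8% to 100% sit at or near 0, mt-Nd3 at 97.99% lies between them and the others, and mt-Atp8 at 0% is also at 0.

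Among the members that were counted, the complex IV catalytic subunit mt-Co1 (chrM:5328-6872, plus strand) had 31.1% (Epcam-positive) and 30.1% (Epcam-negative) of mitochondrially coded member reads. It ran from 1581 through a median of 9125 to 22410.0 CPM and from 46.5 through 5812 to 29061 CPM, and its summed levels of 9673 and 6197 CPM gave a log2 ratio of -0.64. The complex I subunit mt-Nd1 (chrM:2751-3707) followed with 27.5% and 25.01% of these reads, at 8545 and 5144 CPM (log2 ratio -0.73). Cytochrome b of complex III, mt-Cytb (chrM:14145-15288), had 24.1% and 25.8%, at 7497 and 5314 CPM (log2 ratio -0.50). These 3 transcripts made up most of the set's reads in both populations. The other complex I subunits were mt-Nd5 (2362 and 1683 CPM, log2 ratio -0.49), mt-Nd4 (1669 and 1284 CPM, -0.38), mt-Nd2 (883 and 581 CPM, -0.60), mt-Nd6 (419 and 345 CPM, -0.28) and mt-Nd3 (34.98 and 19.9 CPM, -0.79), each with its log2 ratio. The light-strand gene mt-Nd6 overlaps mt-Nd5 over 2.70% of its length. The strand setting of the counting is not given, so reads from the 2 strands cannot be told apart over mt-Nd6.

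Per kilobase of exon in Epcam-positive cells, mt-Nd1 stood at 8929 CPM, mt-Cytb at 6553, mt-Co1 at 6261, mt-Nd5 at 1295, mt-Nd4 at 1211, mt-Nd2 at 851 and mt-Nd6 at 808. All reads of a gene were then divided by the length whose windows have no match with up to 1 mismatch in other annotated transcripts. This takes it that no read came from the rest of the gene, which was not tested. By that length mt-Co1 moved to 22899 and mt-Nd4 to 3206 CPM per kilobase, while mt-Nd1 kept its 8929. The order among mitochondrial transcripts therefore depends on which length is counted, while the log2 ratio of a gene between populations does not.

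Across single cells the 2 sources were compared as sums. Nuclear-coded members had a median of 23429.8 CPM (10161 to 33727) over Epcam-positive and 13718 CPM (6399 to 41386) over Epcam-negative cells. Mitochondrially coded members had a median of 28868 CPM (10016 to 78668) and 19052 CPM (121.6 to 90694). The spread was wider for the mitochondrial sum: the 90th percentile was 2.55 and 3.44 times the 10th, against 2.10 and 2.23 times for the nuclear sum. More mitochondrially than nuclear-coded reads were counted in 69.4% of Epcam-positive and 73.4% of Epcam-negative cells. The ratio of the 2 had a median of 1.34 (0.31 to 2.79) and 1.32 (0.0092 to 7.09).

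As a description over cells that share a plate and sequencing run, the Spearman correlation of the 2 sums was 0.14 over the 62 kept Epcam-positive cells and 0.48 over the kept Epcam-negative cells (Pearson 0.23 and 0.38 on log2 values). Here the nuclear sum was taken per 1000000 reads of nuclear-coded genes and the mitochondrial sum per 1000000 gene reads, so that they do not share a denominator. With both per 1000000 gene reads the values were 0.07 and 0.43. In cells with at least 250000 gene reads they were 0.17 (51 cells) and 0.56. Plate columns 1 to 12 and 13 to 24 gave 0.28 and 0.03 for Epcam-positive cells (31 cells each), and 0.49 and 0.47 for Epcam-negative cells. Per spike-in read, a scale on which the RNA content of a cell enters both sums, they were 0.85 and 0.88. The Epcam-positive value is weak and is not read as a relation, and whether the populations differ was not tested.

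**Figure D4:**
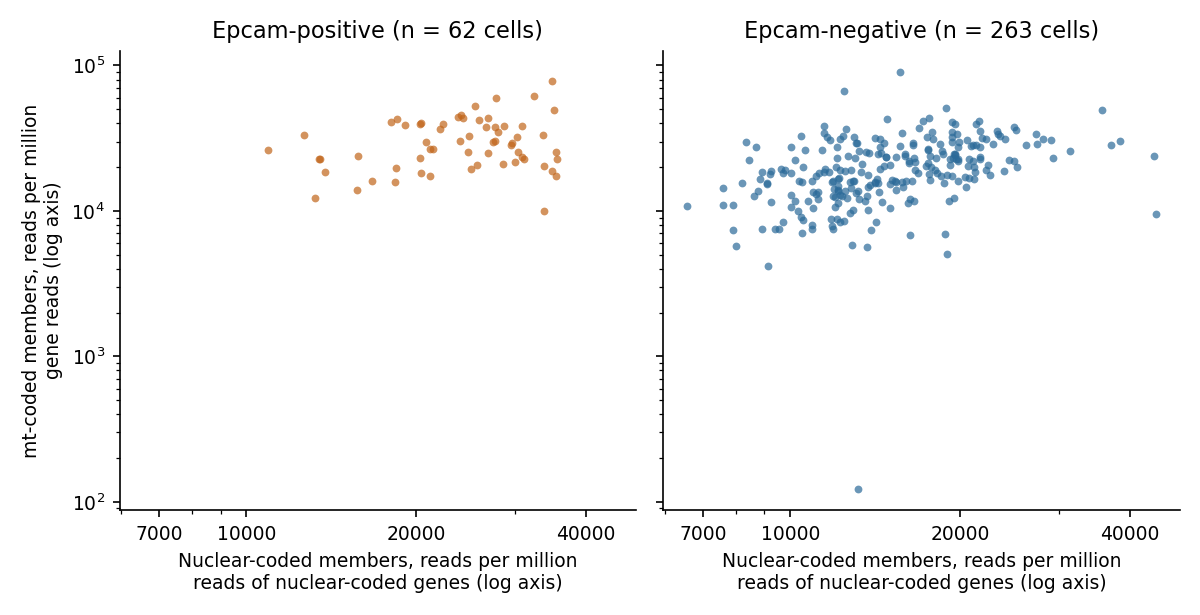
Each point is 1 kept cell, with the summed nuclear-coded members per 1000000 reads of nuclear-coded genes on the x axis and the summed mitochondrially coded members per 1000000 gene reads on the y axis, both log axes. The Epcam-negative cells (right) trend upward (Spearman 0.48), the Epcam-positive cells (left) less so (0.14, n = 62), and 1 Epcam-negative cell lies far below all others at 121.6 CPM.

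Each gene was also set against the 2 sums. For nuclear-coded members the median Spearman correlation of a gene with the nuclear sum, which includes that gene, was 0.41 over Epcam-positive and 0.38 over Epcam-negative cells, against 0.03 and 0.12 over all measured genes. For mitochondrially coded members the median correlation with the mitochondrial sum, most of which comes from 3 of them, was 0.71 and 0.72. Across the sources, mitochondrially coded members had a median correlation of 0.09 and 0.37 with the nuclear sum, and nuclear-coded members 0.12 and 0.20 with the mitochondrial sum. Over Epcam-negative cells the single-gene medians with the nuclear sum were thus close for the 2 sources (0.38 and 0.37). The sources differ in gene number and level, so these medians do not rank them. The 2 sums themselves stood at 0.48 over these cells. The nuclear sum correlated with the summed genes of the mitochondrial ribosome at 0.79 and 0.81 and with cytosolic ribosomal protein genes at 0.57 and 0.75. With Krebs cycle and pyruvate dehydrogenase genes it stood at 0.52 and 0.66. The mitochondrial sum correlated with the mitochondrial ribosomal RNAs at 0.63 and 0.65, and with mitochondrial ribosome genes at 0.34 and 0.39. Gene reads of a cell had correlations of 0.07 and 0.11 with the nuclear and 0.07 and -0.05 with the mitochondrial sum. The number of genes detected had 0.11 and 0.34 with the nuclear and 0.30 and 0.21 with the mitochondrial sum, and the spike-in share -0.16 and -0.31 with the nuclear and -0.32 and -0.18 with the mitochondrial sum. The part of these in the correlation of the sums was not tested. The epithelial markers were Epcam, Cdh1, Krt14 and Krt5, and the mesenchymal markers Vim, Col1a1, Col3a1 and Zeb1. In Epcam-negative cells Krt14 (1836 CPM) and Krt5 (516 CPM) stood far above Epcam (22.7 CPM) and Cdh1 (3.90 CPM). Within these cells, the nuclear sum had a correlation of 0.30 with the epithelial markers and -0.36 with the mesenchymal markers. The mitochondrial sum had 0.41 and -0.24. The part of these marker genes in the member values was not tested.

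Other genes of the pathway were read from lists beside the members. The mitochondrial ribosome, which translates the mitochondrially coded members, had 72 of 75 measured genes lower in Epcam-negative cells and a median of -0.60, from Mrpl49 (56.2 and 19.95 CPM, log2 ratio -1.45) to Mrpl3 (56.6 and 70.6 CPM, log2 ratio 0.31). Respiratory subunits and carriers that the symbol rule misses had 14 of 15 lower and a median of -0.66. Cyc1, cytochrome c1 of complex III, stood at 366 and 179.3 CPM (log2 ratio -1.02). The 2 main adenine nucleotide carriers, which exchange ATP for ADP across the inner membrane, went opposite ways: Slc25a5 was at 575 and 274.2 CPM (log2 ratio -1.07) and Slc25a4 at 663 and 1093 CPM (log2 ratio 0.72). Assembly factors outside the rule had 23 of 29 lower and a median of -0.43, with the copper chaperone Cox17 at 42.7 and 18.8 CPM (log2 ratio -1.14), Higd1a at 89.2 and 41.6 CPM (-1.08), and the complex III factor Ttc19 at 24.8 and 53.5 CPM (1.08). Within 2-fold in 1 of the blocks of plate columns were Mrpl49 and Cyc1 (both -0.99), Slc25a5 (-0.97) and Ttc19 (0.86).

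The list of Krebs cycle genes, which also holds the pyruvate dehydrogenase genes Pdha1 and Dlat, was shifted less. It had 13 of 18 genes lower and a median of -0.34. Citrate synthase (Cs) stood at 270.3 and 130.1 CPM (log2 ratio -1.05, and by plate columns -0.65 (1 to 12) and -1.54 (13 to 24)), while Idh2 (105.5 and 130.999 CPM, log2 ratio 0.31) and Pdha1 (123.5 and 151.1 CPM, log2 ratio 0.29) were higher in Epcam-negative cells. Genes that copy and express mitochondrial DNA had 16 of 23 lower and a median of -0.30. Tfam, which packages mitochondrial DNA and is named here after its values were seen, was at 47.6 and 28.2 CPM (log2 ratio -0.73). The lowest were Tbrg4 at 42.4 and 12.5 CPM (-1.68) and Polg2 at 22.3 and 9.49 CPM (-1.15, and by plate columns -0.45 (1 to 12) and -1.59 (13 to 24)). The highest were Mto1 at 8.17 and 15.1 CPM (0.81, and by plate columns 0.15 (1 to 12) and 1.20 (13 to 24)) and the polymerase Polg at 10.2 and 18.0 CPM (0.76). Of the regulators of mitochondrial biogenesis 5 of 9 were higher, with a median of 0.22. The median was -0.02 in plate columns 1 to 12 and -0.13 with spike-in scaling (7 of 9 lower), so no direction is given for this list. Myc was at 106.5 and 275.1 CPM (log2 ratio 1.36) and Yy1 at 48.2 and 63.9 CPM (0.40), while Nfe2l2 was at 342 and 273.9 CPM (-0.32) and Gabpa at 41.9 and 35.1 CPM (-0.25). The coactivator Ppargc1a had 0 reads in Epcam-positive cells and 190 reads in 9 Epcam-negative cells.

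The shift was also seen in other gene groups. Glycolysis had 16 of 18 genes lower and a median of -0.66, with the glucose transporter Slc2a1 at 972 and 316 CPM (log2 ratio -1.62) and hexokinase Hk2 at 100.96 and 226.01 CPM (1.15). Cytosolic ribosomal protein genes had 73 of 74 lower and a median of -0.85. Gene reads per read of the spike-ins, a measure of RNA content, were 221.1 and 157.2 at the median cell, and nuclear-coded member reads per spike-in read 5.10 and 2.21. The part of RNA content in the member values was not tested.

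**Figure D5:**
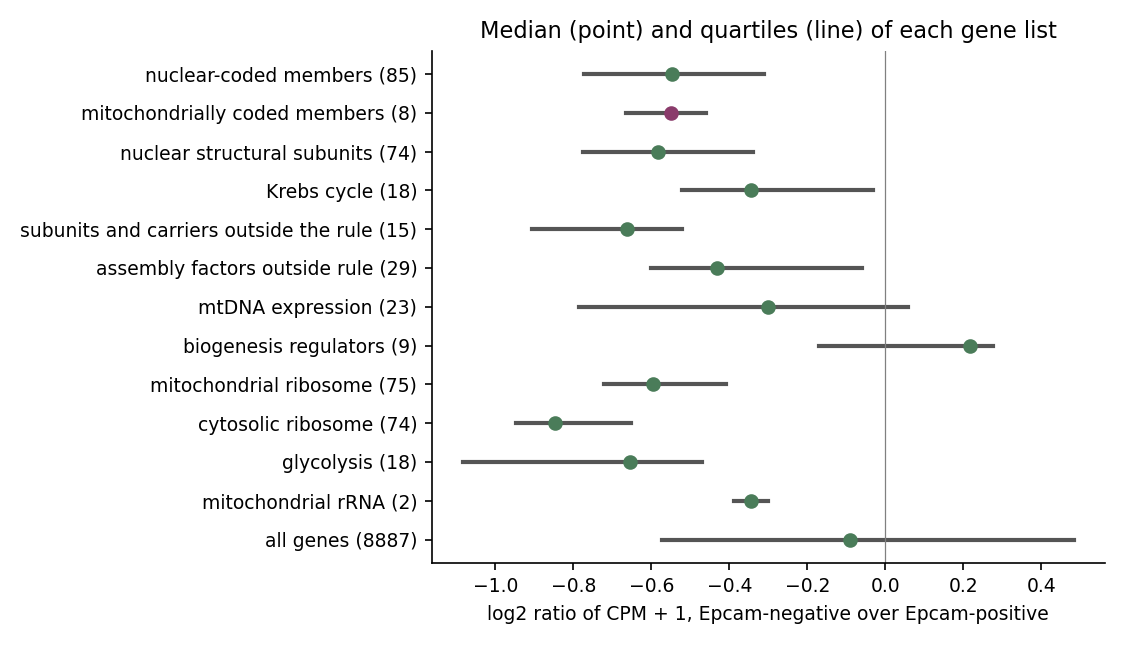
For each gene list, the point is the median and the line the quartile range of the log2 ratio of CPM + 1 (Epcam-negative over Epcam-positive), with the number of measured genes in parentheses. The nuclear-coded (-0.55) and mitochondrially coded members (-0.55) lie between the Krebs cycle (-0.34) and cytosolic ribosomal protein genes (-0.85), and the biogenesis regulators lie at 0.22 here, against -0.02 in plate columns 1 to 12 and -0.13 with spike-in scaling.

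Since nuclear-coded members shifted together, their promoters were searched for sites of 3 factors known from respiratory chain genes. RefSeq promoters (GRCm38.p6, 300 bases each) were matched by symbol for 78 nuclear-coded members. The letters searched on both strands were GCGCATGC for nuclear respiratory factor 1 (NRF1), CCGGAAGT for the ETS factor GABPA and AAGATGGC for YY1. Promoters of 4 members of complexes II, III and IV that hold a match are shown, with matched letters in capitals.
Uqcrc1: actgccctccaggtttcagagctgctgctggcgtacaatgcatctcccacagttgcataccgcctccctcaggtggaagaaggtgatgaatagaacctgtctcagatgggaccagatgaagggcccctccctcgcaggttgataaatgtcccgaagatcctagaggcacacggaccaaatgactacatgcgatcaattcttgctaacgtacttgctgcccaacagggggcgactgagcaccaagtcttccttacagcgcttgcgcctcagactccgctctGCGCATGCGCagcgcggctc
Uqcr11: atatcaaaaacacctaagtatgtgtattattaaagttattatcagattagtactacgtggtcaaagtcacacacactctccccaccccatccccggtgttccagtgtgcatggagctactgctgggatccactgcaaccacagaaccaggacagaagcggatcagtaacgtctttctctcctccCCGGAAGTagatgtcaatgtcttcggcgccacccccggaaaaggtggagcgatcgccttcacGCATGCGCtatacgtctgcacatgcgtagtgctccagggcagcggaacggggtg
Cox8a: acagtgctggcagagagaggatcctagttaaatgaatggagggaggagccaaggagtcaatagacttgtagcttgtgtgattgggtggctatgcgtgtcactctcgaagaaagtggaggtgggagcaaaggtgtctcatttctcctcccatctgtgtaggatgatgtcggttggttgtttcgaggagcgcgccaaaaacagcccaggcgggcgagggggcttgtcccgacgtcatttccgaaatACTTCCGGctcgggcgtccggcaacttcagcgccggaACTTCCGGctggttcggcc
Sdhb: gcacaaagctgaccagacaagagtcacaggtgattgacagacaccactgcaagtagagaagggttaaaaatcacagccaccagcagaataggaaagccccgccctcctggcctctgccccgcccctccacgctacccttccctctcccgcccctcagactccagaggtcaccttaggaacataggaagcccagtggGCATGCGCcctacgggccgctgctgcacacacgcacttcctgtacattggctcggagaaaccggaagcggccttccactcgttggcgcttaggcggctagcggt
The windows are chr9:108936398-108936697, plus strand for Uqcrc1, chr10:80406772-80407071, minus strand for Uqcr11, chr19:7217567-7217866, minus strand for Cox8a and chr4:140961021-140961320, plus strand for Sdhb. In Uqcrc1 the NRF1 letters match on both strands and overlap, Uqcr11 holds NRF1 and ETS letters, Cox8a holds the ETS letters at 2 places, and Sdhb holds the NRF1 letters.

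The NRF1 letters were in 12 of 78 member promoters (15.4%), against 3.05% of all 27025 genes with a promoter and 6.49% of the 7023 measured genes with one. The YY1 letters were in 10 (12.8%, against 3.19% and 5.72%), and the ETS letters in 5 (6.41%, against 4.31% and 10.3%). For the NRF1 letters the 10 measured members with a match had a median log2 ratio of -0.58 and the 60 without -0.55, for the YY1 letters 10 had -0.50 and 60 had -0.55, and for the ETS letters 5 had -0.85 and 65 had -0.54. The 24 measured members with any of the 3 had a median of -0.61, and the 46 without had -0.54. The 4 promoters shown were picked by hand. Among them, Uqcrc1 (-0.9995), Cox8a (-0.87) and Uqcr11 (-0.86) had log2 ratios well below that of Sdhb (-0.17). Measured members with a match ran from Ndufaf4 (-1.23) to Ndufaf8 (-0.03). A match describes letters in these windows and is no measure of factor binding.

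The cells left out by the filters and the control wells complete the account. In the 8 Epcam-positive and 47 Epcam-negative cells left out, the median ratio of mitochondrially to nuclear-coded reads was 1.72 and 1.53, and mitochondrial reads reached 32.4% and 50.0% of a cell's gene reads. The well set up with 50 Epcam-negative cells had 154897 gene reads and a ratio of 2.52, above the ratio of the summed single cells of its population (1.36).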

How the data were processed

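The authors deposited raw counts of reads in genes and in 92 spike-ins, for 383 wells of Smart-seq2 single-cell RNA-seq. Per the submitters' processing notes, cutadapt 1.13, STAR 2.5.2b, HTSeq 0.6.0 and the mouse build GRCm38 were used. The annotation release, strand setting and handling of multiply mapped reads were not given in the sources used here. The 114 members (101 nuclear-coded, 13 mitochondrially coded) are all genes that the symbol rule takes. Symbols came from GENCODE vM21 by gene identifier without version (49326 matched, 259 not).

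Cells were kept with at least 100000 gene reads, at least 2000 genes, at most 20% mitochondrial reads and at most 50% spike-in reads. The kept cells numbered 62 (Epcam-positive) and 263 (Epcam-negative). The reads of a population's cells were summed and given as CPM, counts per 1000000 reads in genes, with a pseudocount of 1 in log2 ratios, and genes with a mean of at least 10 CPM were called measured. Each population is 1 sample, so no test was run and called means past 2-fold. Intervals are exact 95% intervals (Poisson, conditional binomial, Clopper-Pearson) and cover counting error only. Shares of cells come from cells thinned to 100000 reads, with a gene present at 5 or more. No doublet caller was run, since the labels describe doublet discrimination at the sort.

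Named genes were all mitochondrially coded members, core catalytic subunits and the paralog sets. Added to these were the 2 highest and 2 lowest of each complex and every measured member past 2-fold. Of the lists, some of the 2 highest and 2 lowest genes are named and others are left out. The members and lists were chosen with earlier results of these data known. Alternatives were other cell filters, scalings (edgeR 4.0.16 for TMM), pseudocounts, minimum levels and blocks of plate columns. The ratio calculation was tested on simulated data. Computations used Python 3.11.15, numpy 2.4.6, scipy 1.17.1 and pandas 2.3.3. A further allele named in the labels and 1 core subunit that the naming rule takes are not reported here.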

Additional observations from a re-analysis of the deposited data

Results flagged for a closer look

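Member reads were found in both wells set up with 0 cells, which no comparison used. The well in plate row B held 99241 gene reads, of which 9.46% (9391 reads) were member reads, 3069 nuclear-coded and 6322 mitochondrially coded, a ratio of 2.06. It held reads of 88 nuclear-coded members and of 8 mitochondrially coded members, and its 8230 spike-in reads were 12.1-fold fewer than its gene reads. The well in plate row E held 4018 gene reads, of which 3.21% were member reads, and 12860 spike-in reads. The kept single cells had 221.1 and 157.2 gene reads per spike-in read at the median. The source of the reads in these wells was not tested.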

How the results depend on the processing

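The nuclear-coded median stayed below 0 in all 14 alternatives (-0.89 to -0.42), as did the mitochondrially coded median (-0.90 to -0.42). The log2 difference of the mitochondrial-to-nuclear ratio stayed above 0, but scalings, pseudocounts and minimum levels cannot change this ratio. Over single cells the median ratio went the other way, at 1.34 (Epcam-positive) and 1.32 (Epcam-negative). The complex II median turned to 0.05 (TMM) and 0.02 (median of ratios), and the biogenesis regulators turned to -0.02 (plate columns 1 to 12) and -0.13 (spike-in scaling). Of the measured members named, Ndufs1, Ndufa13, Ndufb4, Ndufaf7, Ndufaf8, Sdha, Sdhc, Sdhd and Sdhaf4 changed sign in at least 1 alternative. Of the measured members, 70 of 85 nuclear-coded and 8 of 8 mitochondrially coded were lower in every alternative. TMM, median-of-ratios and spike-in scaling moved the median of all genes by 0.13, 0.11 and -0.36. Under them the nuclear-coded median was -0.42, -0.44 and -0.89, the mitochondrially coded median -0.42, -0.44 and -0.90, and the members 2-fold lower numbered 2, 2 and 31 against 5. Relative to all genes, the nuclear-coded median was -0.46, -0.46 and -0.44. With spike-in scaling 28.8% of all genes and 1.18% of nuclear-coded members were higher, against 45.3% and 5.88%. Under TMM and median of ratios, 12 and 11 nuclear-coded members were higher, against 5.

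The mitochondrially coded median was -0.53 with no filter on cells, -0.57 per 1000000 nuclear-coded gene reads, -0.49 with no filter on low counts, -0.50 at a minimum mean of 50 CPM, -0.47 and -0.64 in plate columns 1 to 12 and 13 to 24, and -0.52 without the cell with most member reads. The log2 difference of the mitochondrial-to-nuclear ratio, 0.03 as reported, was 0.056 with no filter on cells, 0.046 with no mitochondrial cap, 0.0068 with the stricter cell filter, 0.063 as a mean over cells, 0.055 and 0.0061 in plate columns 1 to 12 and 13 to 24 and 0.060 without the top cell. The members 2-fold lower numbered 3 with the stricter filter and 9 in columns 13 to 24, and 1 member (Atp5s) was 2-fold higher with no filter on low counts. The causes of these moves were not tested. No measured member moved over 1.5 times without its top cell. No paired analysis was possible because the labels give no replicate numbers that pair cells across populations.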

Other observations

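A few cells stood apart in their mitochondrial reads. An Epcam-negative cell (plate row L, column 4) had 279639 gene reads and 5353 genes, but a mitochondrial share of 0.037% and a ratio of mitochondrially to nuclear-coded member reads of 0.0092, with nuclear-coded members at 13163 CPM. The other extremes were Epcam-negative cells in row K, column 7 (ratio 7.09, mitochondrial share 18.4%) and row I, column 4 (ratio 6.60, mitochondrial share 18.6%), both under the 20% cap.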
